A study of Homo sapiens with 6 samples.

Results

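Deubiquitinating enzymes are described here in SNU449 cells, a human liver cancer line in long use, after induction of FOXO1AAA. The members were the rows of the deposited log2 FPKM table whose gene symbols begin with USP and a digit, OTUD, OTUB, UCHL, JOSD, ATXN3 or STAMBP, or are CYLD or BAP1. The rule used names only, and it took 64 of 13117 rows. Of these, 63 encode deubiquitinases or close relatives by sequence. The remaining row, USP6NL, encodes a GTPase-activating protein of RAB5 and is counted as a member only because its symbol fits the rule. FPKM stands for fragments counted for a gene, scaled for transcript length and for the size of the library. The Dox group (n = 3) held cells with the pInducer20-FOXO1AAA construct that received 2 µM doxycycline hydrochloride for 48 h, and the Cont group (n = 3) held the same construct cells without the drug. All samples carry the genotype label WT. FOXO1AAA is a form of the transcription factor FOXO1 whose AKT phosphorylation sites are replaced, and pInducer20 drives it from a doxycycline-inducible promoter. No library had doxycycline without the construct, so effects of the drug and of FOXO1AAA itself cannot be told apart, and the labels do not say whether the line was 1 clone.

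Deubiquitinases remove ubiquitin, the small protein that marks other proteins for degradation, sorting or signalling, and they thereby oppose the ubiquitin ligases. Most are cysteine proteases of the USP, OTU, UCH and Josephin families, while the JAMM family, here STAMBP and STAMBPL1, consists of zinc metalloproteases. Different members edit signalling complexes at receptors, sort receptors at endosomes, strip chains at the proteasome, or act on histones and DNA repair proteins. In hepatocellular carcinoma cells they are studied for their effect on the stability of proteins such as MYC, p53 and beta-catenin.

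FOXO1 mRNA was at 2.87, 3.5 and 2.01 FPKM in the 3 Dox libraries and at 0.741, 0.776 and 0.889 FPKM in the 3 Cont libraries, although the table does not show whether construct reads were counted under FOXO1. The log2 change was 1.06 (SE 0.15, limma adjusted p = 9.84e-05). FOXO1 met the filter for testing, at least 1 FPKM in at least 3 libraries, through its Dox values alone. It could therefore only have been called higher. Relative depths, read from the steps of the lowest values, ran between 0.872 and 1.31 of the mean library in Dox and between 0.79 and 1.16 in Cont. Libraries of the same group correlated across genes at r between 0.992 and 0.998, and libraries of different groups at 0.827 to 0.854. Of 13 hepatocyte markers, 6 had a row, with a summed level of 48.7 to 52.1 FPKM in Dox and 265 to 333 FPKM in Cont. FGB was at 6.43 to 9.98 FPKM in Dox and 135 to 191 FPKM in Cont. KRT8 was at 22 to 24.4 FPKM in Dox and 62.6 to 68.5 FPKM in Cont. KRT18 was at 8.2 to 12.4 FPKM in Dox and 56.8 to 61 FPKM in Cont. AFP overlapped, at 4.65 to 8.62 FPKM in Dox and 7.34 to 17.1 FPKM in Cont. ALB was higher in Dox, at 0.85 to 1.71 FPKM against 0.0941 to 0.571 FPKM in Cont. ASGR1 was higher too, at 0.521 to 0.933 FPKM in Dox and 0.258 to 0.447 FPKM in Cont. APOA1, TTR and HNF4A had no row. The 4 mesenchymal markers summed to 309 to 367 FPKM in Dox and 954 to 969 FPKM in Cont. VIM carried that sum, at 265 to 329 FPKM in Dox and 901 to 915 FPKM in Cont. CDH2 was also lower in Dox, at 18.9 to 23.2 FPKM against 43.4 to 44.9 FPKM in Cont. FN1 was higher in Dox, at 7.27 to 8.17 FPKM against 1.08 to 1.92 FPKM in Cont. So was ZEB1, at 10.9 to 12.5 FPKM in Dox against 7.26 to 7.91 FPKM in Cont. The 1 immune marker with a row, CD14, was at 2.25 to 2.38 FPKM in Dox and 1.73 to 2.35 FPKM in Cont, and 2 endothelial markers summed to 0.528 to 0.975 FPKM in Dox and 0.306 to 0.401 FPKM in Cont. The part of these differences in the results below was not tested. The mitochondrially encoded genes took 14.1 ± 0.81% of the summed FPKM in Dox and 3.73 ± 0.86% in Cont (SD, n = 3 each), and their share enters every FPKM value. In bulk RNA a smaller number of cells with a transcript and less transcript per cell cannot be told apart.

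Deubiquitinase transcripts moved in both directions. Of the 64 members, 60 passed the filter of at least 1 FPKM in at least 3 libraries and were tested with limma on log2(FPKM + 1). With an adjusted p under 0.05 (Benjamini-Hochberg over all 11526 genes tested), 30 members were higher and 22 lower in Dox, and 8 did not pass. That is 86.7% of the tested members, beside 80.4% of all tested genes, so the share of members called lay near that of the whole table. The 30 rises are 50% of the members, beside 37.6% of all genes, and the 22 falls are 36.7%, beside 42.8%. In 86.7% of the tested members, and in 82.1% of all tested genes, the 3 Dox values did not overlap the 3 Cont values. Large changes leaned upward: 13 members rose and 4 fell by at least 1 on the log2 scale, where 16.3% of all genes rose and 16.6% fell by that much. The median log2 change was 0.13 for the tested members and -0.06 for all tested genes, and the members' median was 0.03 without USP6NL.

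The balance of directions depended on scaling. Higher members made up 57.7% of the member calls as fitted and 69.6% when mitochondrially encoded genes were left out and the rest rescaled to TPM, which gives every library the same total. For all genes the same shares were 46.7% and 59.0%, and their median change moved by more than 0.1, being -0.06 as fitted and 0.19 after that rescaling. Under it 32 members rose and 14 fell, with a member median of 0.39.

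**Figure D1:**
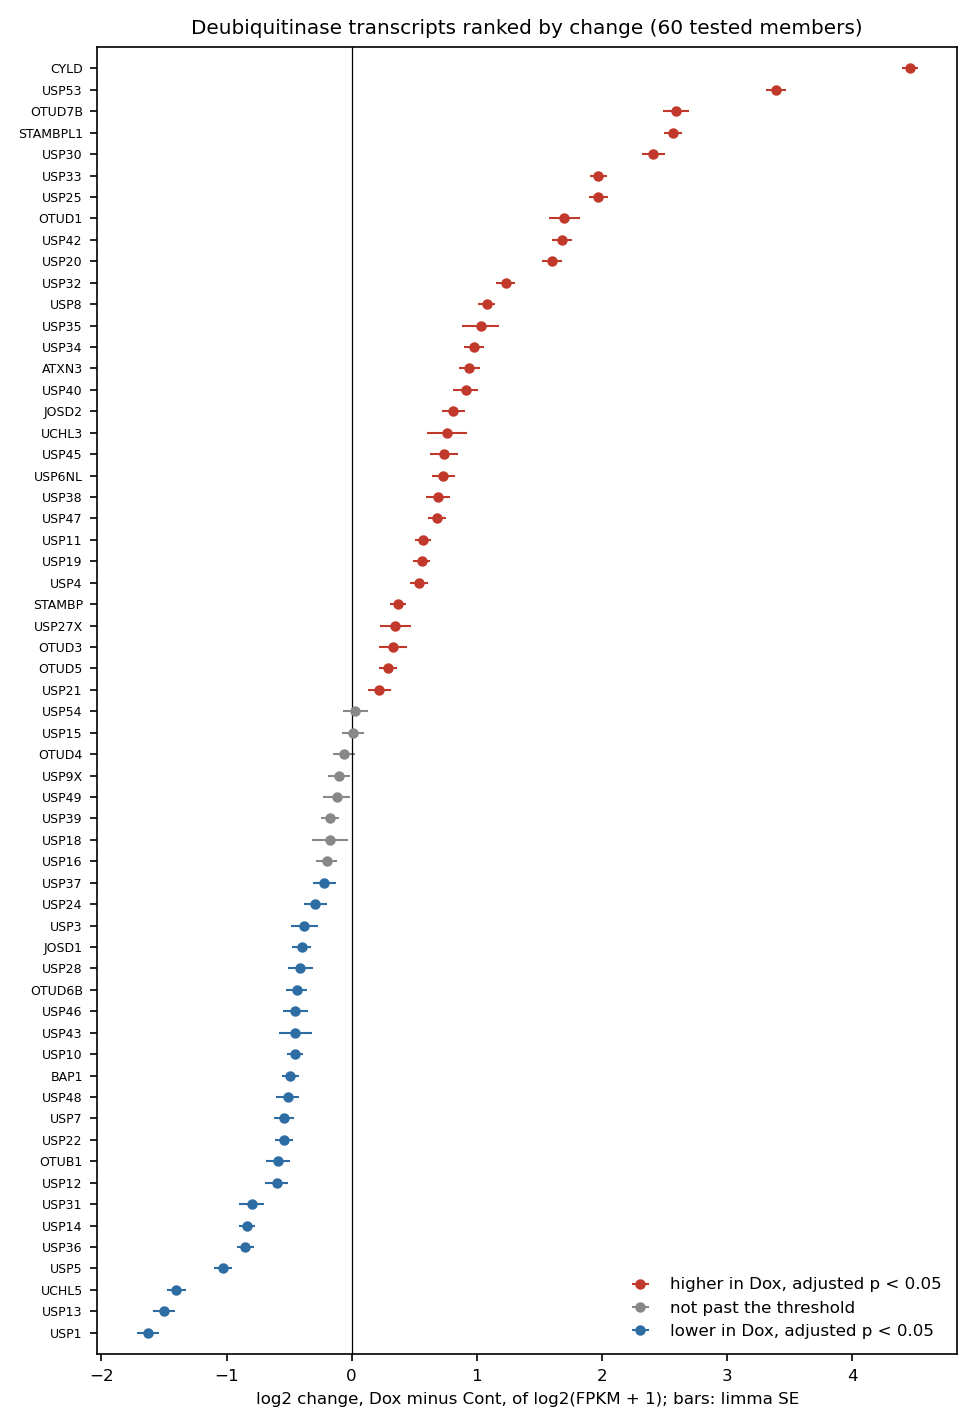
The 60 tested members ranked by log2 change of FPKM + 1, Dox minus Cont; points are the fitted changes and bars their limma SE. CYLD at 4.46 and USP53 at 3.39 stand at the top, USP13 at -1.50 and USP1 at -1.63 at the bottom, and 8 members in grey did not pass the test.

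CYLD showed the largest change of any member. Its product cuts non-degradative and linear ubiquitin chains from signalling proteins, restrains NF-kB and is a tumour suppressor of skin appendages. CYLD (chromosome 16, 50742050 to 50801935, plus strand, GRCh38) was at 899, 929 and 921 FPKM in Dox, against 40.1, 43.1 and 38.8 FPKM in Cont. The libraries within each group lay close together and the groups were far apart. The mean was 22.5-fold higher in Dox (log2 change 4.46, SE 0.064, limma adjusted p = 1.75e-10). By mean FPKM CYLD ranked 1 among the 64 members in Dox and 14 in Cont. The first listed of its 3 promoter windows in RefSeq (build GRCh38.p14), chr16:50741906-50742205, plus strand, is shown because of the size of this change.
CYLD: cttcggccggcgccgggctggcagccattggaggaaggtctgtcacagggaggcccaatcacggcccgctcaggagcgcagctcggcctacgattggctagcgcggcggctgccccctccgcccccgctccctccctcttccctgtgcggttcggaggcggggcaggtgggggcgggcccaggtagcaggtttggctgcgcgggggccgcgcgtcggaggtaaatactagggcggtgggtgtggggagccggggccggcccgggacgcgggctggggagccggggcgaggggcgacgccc

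USP53, a USP family member long classed as catalytically inactive and found at tight junctions, followed. It was at 68.8, 70.9 and 64.3 FPKM in Dox, against 5.12, 5.72 and 5.87 FPKM in Cont, 12.2-fold higher (log2 change 3.39, SE 0.078, limma adjusted p = 1.08e-09). The gene lies on chromosome 4, 119212587 to 119295517. OTUD7B, also called Cezanne, removes chains from signalling adaptors in the NF-kB pathway and is known to act on MLST8, a subunit of the mTOR complexes. OTUD7B (chromosome 1, 149937812 to 150010676) was at 35.5, 35.1 and 31.8 FPKM in Dox, against 4.53, 4.29 and 5.81 FPKM in Cont (log2 change 2.59, SE 0.106, limma adjusted p = 1.62e-08). For both genes every Dox library lay above every Cont library, which the choice of the largest rises required.

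STAMBPL1, an endosomal metalloprotease specific for chains that sort receptors, was at 76.4, 72.1 and 79.8 FPKM in Dox, against 12.4, 11.3 and 12.2 FPKM in Cont (log2 change 2.57, limma adjusted p = 2.13e-09). The gene lies on chromosome 10, 88879734 to 88975153. USP30, a deubiquitinase of the outer mitochondrial membrane known to restrain mitophagy, was at 25.4, 26.6 and 25.8 FPKM in Dox, against 4.01, 4.64 and 3.63 FPKM in Cont (log2 change 2.41, limma adjusted p = 1.02e-08). Both rose about as far relative to their own Cont level, 6.37-fold for STAMBPL1 and 6.34-fold for USP30.

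USP25 and USP33 rose by the same amount, 1.97 on the log2 scale each (SE 0.074 for USP25 and 0.066 for USP33). USP25, which acts in innate immune and Wnt signalling, averaged 50.3 ± 3.13 FPKM in Dox and 12 ± 0.434 FPKM in Cont (SD, n = 3 each; limma adjusted p = 9.52e-09). USP33, which acts on membrane receptors and on centrosome duplication, averaged 106 ± 5.15 FPKM in Dox and 26.4 ± 0.707 FPKM in Cont (SD, n = 3 each; limma adjusted p = 5.17e-09). OTUD1, which acts in antiviral signalling and on p53, was the lowest of these genes, at 9.61, 8.72 and 8.64 FPKM in Dox, against 2.62, 1.63 and 2.05 FPKM in Cont (log2 change 1.70, SE 0.125, limma adjusted p = 8.1e-07). None of these genes overlapped between groups, which the choice of the largest rises required. The groups did not overlap in 82.1% of all tested genes. The other rises of at least 1 in log2 were those of USP42 (1.68), USP20 (1.60), USP32 (1.23), USP8 (1.08) and USP35 (1.03); USP32 is named here after its value was seen.

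**Figure D2:**
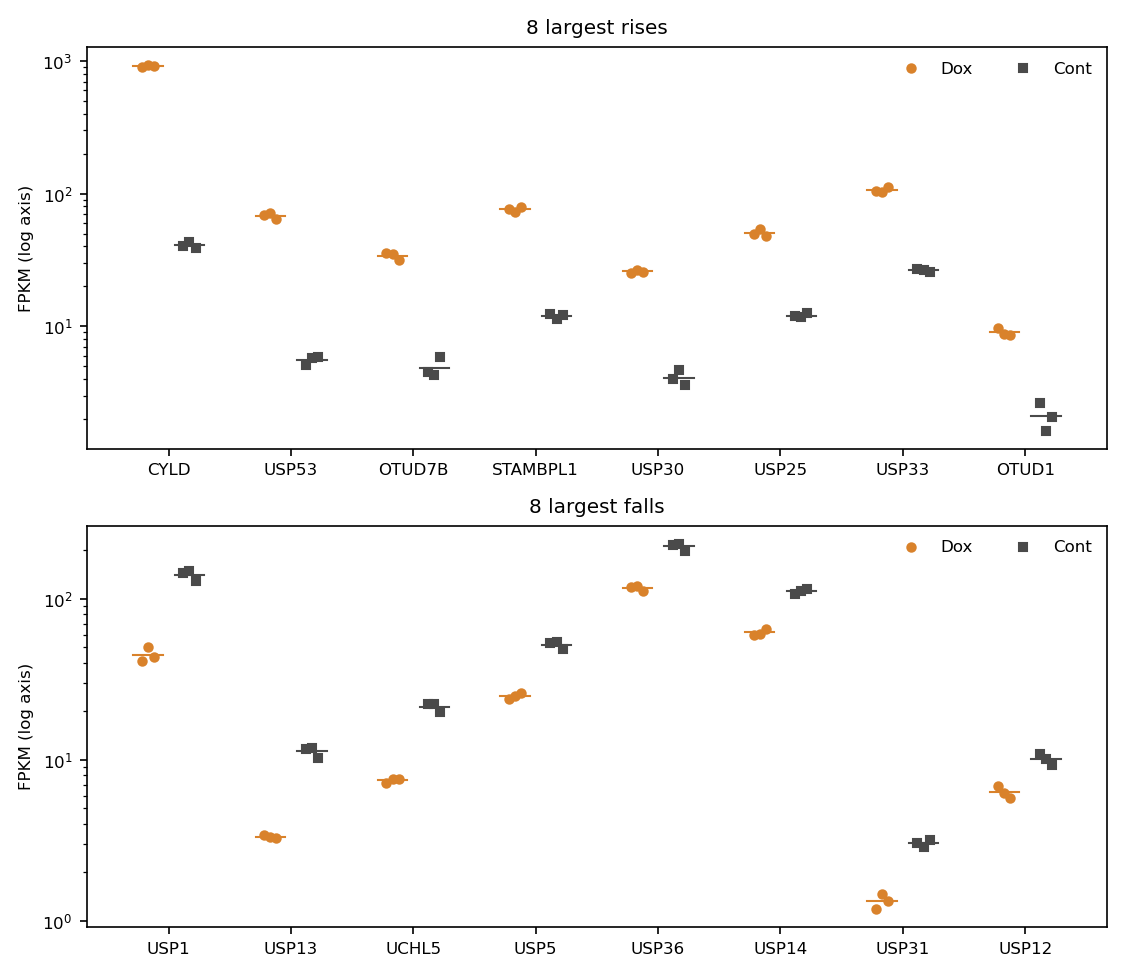
FPKM in each library (log axis) of the 8 members with the largest rises (top) and the 8 with the largest falls (bottom); circles are Dox, squares Cont, and lines the mean of 3 libraries. The 16 genes were chosen among called members whose 3 Dox values do not overlap their 3 Cont values, as in 82.1% of all tested genes. CYLD was at 899 to 929 FPKM in Dox against 38.8 to 43.1 FPKM in Cont.

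On the log2(FPKM + 1) scale the largest fall was that of USP1, which with its partner WDR48 removes ubiquitin from the DNA repair proteins FANCD2 and PCNA. USP1 (chromosome 1, 62436297 to 62451804) was at 41, 50.3 and 43.8 FPKM in Dox, against 144, 149 and 129.7 FPKM in Cont. It was 3.13-fold lower in Dox (log2 change -1.63, SE 0.089, limma adjusted p = 1.04e-07) and ranked 16 among the members in Dox and 3 in Cont. The first listed of its 2 promoter windows, chr1:62436145-62436444, plus strand, is shown as that of the member with the largest fall on this scale. With a pseudocount of 0.1, on the deposited log2 values, after quantile normalization and by the ratio of means, USP13 fell further than USP1.
USP1: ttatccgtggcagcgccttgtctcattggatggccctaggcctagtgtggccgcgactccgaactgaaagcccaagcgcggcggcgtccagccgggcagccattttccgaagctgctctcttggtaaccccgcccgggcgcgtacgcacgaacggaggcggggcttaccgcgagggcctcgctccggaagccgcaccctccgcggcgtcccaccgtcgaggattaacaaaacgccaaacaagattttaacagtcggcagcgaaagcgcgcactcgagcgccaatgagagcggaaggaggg

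USP13, a relative of USP5 that acts in endoplasmic reticulum degradation and autophagy, was at 3.4, 3.32 and 3.28 FPKM in Dox, against 11.7, 11.9 and 10.2 FPKM in Cont (3.38-fold lower, log2 change -1.50, deposited scale -1.76 against -1.65 for USP1, limma adjusted p = 1.91e-07). UCHL5, which binds the proteasome through ADRM1 and the INO80 chromatin remodeller through NFRKB, was at 7.19, 7.58 and 7.65 FPKM in Dox, against 22.1, 22.1 and 19.9 FPKM in Cont (log2 change -1.40, limma adjusted p = 1.26e-07). USP5, which takes apart free ubiquitin chains for reuse, was at 23.9, 25 and 25.9 FPKM in Dox, against 53, 53.6 and 49.1 FPKM in Cont (log2 change -1.03, limma adjusted p = 4.48e-07). In these 3 genes the groups stood apart in every library, which the choice of the 8 largest falls required.

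USP36 and USP14 were among the most abundant members and fell by similar amounts. USP36, a nucleolar enzyme known to stabilise MYC and to serve ribosome production, averaged 117 ± 3.83 FPKM in Dox and 211 ± 11.3 FPKM in Cont (SD, n = 3 each; log2 change -0.85, limma adjusted p = 1.26e-06). USP14, which trims ubiquitin chains on the proteasome, averaged 61.9 ± 2.7 FPKM in Dox and 112 ± 3.57 FPKM in Cont (SD, n = 3 each; log2 change -0.84, limma adjusted p = 1.1e-06). USP31 (-0.80), a poorly described USP, and USP12 (-0.60), which works with WDR48, completed the 8 largest falls.

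The members were also counted by role. The lists were drawn up from general knowledge, but with earlier results of these data known, and they overlap. None was tested as a list. The counts are to be read beside the shares over all tested genes, 37.6% higher and 42.8% lower, and with 5 to 15 members a list the counts are descriptions only. In the list of proteasome-bound and ubiquitin-recycling enzymes, 4 of 5 tested members fell (USP13, UCHL5, USP5 and USP14) and 1, UCHL3, rose, with a median log2 change of -1.03. UCHL3, a hydrolase of small ubiquitin and NEDD8 adducts, was low, at 1.82, 2.78 and 1.45 FPKM in Dox and 0.89, 0.668 and 0.717 FPKM in Cont (log2 change 0.76, limma adjusted p = 0.00156), and its call ended when libraries were quantile-normalized (change of 0.37, limma adjusted p = 0.0716). UCHL3 passed the filter through its Dox values alone, as its Cont values all lay below 1 FPKM, so it could only have been called higher. With a filter of 5 FPKM it was not tested, and the list then held 0 rises and 4 falls.

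Among members that act on chromatin and in DNA repair, 9 of 15 tested fell, 4 rose and 2 did not pass (median -0.41). With mitochondrially encoded genes left out of TPM the counts were 7 falls and 4 rises, and without Dox replicate 1, Dox replicate 2, Cont replicate 1 or Cont replicate 2 there were 2 rises. BAP1, a histone H2A deubiquitinase and tumour suppressor, was at 29.9, 28.7 and 31.7 FPKM in Dox, against 42.9, 42.3 and 43.3 FPKM in Cont (log2 change -0.49, limma adjusted p = 6.91e-05). USP22, the histone deubiquitinase of the SAGA coactivator, averaged 55.6 ± 3.25 FPKM in Dox and 81.2 ± 3.15 FPKM in Cont (SD, n = 3 each; log2 change -0.54, limma adjusted p = 4.81e-05). USP7, which acts on MDM2, p53 and FOXO proteins, averaged 19.0 ± 1.4 FPKM in Dox and 27.9 ± 1.26 FPKM in Cont (SD, n = 3 each; log2 change -0.54, limma adjusted p = 0.000123). The groups did not overlap for any of these 3 genes. The rises on this list were those of USP11 (0.57), USP21 (0.22), USP27X (0.35) and USP47 (0.68), the first of them a gene of homologous recombination control. USP21 kept its call in 8 of 16 alternative settings and USP27X in 10 of the 15 that tested it, and both calls ended without any 1 of those 4 libraries; USP21, USP27X and USP47 are named after their values were seen.

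Regulators of MYC and p53 had 6 falls and 3 rises among 9 tested (median -0.41), with 4 falls and 3 rises under the TPM rescaling above. This median and that of the chromatin list are both the value of USP28, which is on both lists. Among the falls were USP10 (-0.45), which stabilises p53 and binds the stress granule protein G3BP1, and USP28 (-0.41), which opposes the degradation of MYC. USP10 was at 53.4, 53.5 and 54.7 FPKM in Dox, against 77, 74.6 and 70.2 FPKM in Cont (limma adjusted p = 0.000104). USP28 was at 5.08, 5.51 and 6.13 FPKM in Dox, against 7.34, 7.39 and 8.39 FPKM in Cont (limma adjusted p = 0.00317), and its call ended in TPM without mitochondrially encoded genes (log2 change -0.17, limma adjusted p = 0.172). USP37 also stood among the falls (-0.22, limma adjusted p = 0.0465), but it passed in only 2 of the 15 alternative settings that tested it and was at 0.01 under that rescaling; it is named after its values were seen.

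Members that sort receptors at endosomes and those of mitochondria were higher or did not pass in the main comparison. On the endosomal list, 4 of 5 tested members rose, USP9X did not pass, and USP2 and USP6 were too low to test (median 1.08). With no filter on low values the list had 4 rises and 1 fall among 7 members (median 0.37). USP8, which sorts EGF receptors and protects the ESCRT machinery, was at 232, 227 and 227 FPKM in Dox, against 107, 101 and 115 FPKM in Cont (log2 change 1.08, limma adjusted p = 2.34e-07). STAMBP, the closest relative of STAMBPL1, changed much less, at 33.3, 32.3 and 32.6 FPKM in Dox against 26.3, 24.8 and 24.4 FPKM in Cont (log2 change 0.37, limma adjusted p = 0.000561). On the mitochondrial list USP30, USP33, USP35 and USP8 rose and USP15 did not pass (median 1.08), although USP15 was called higher under the TPM rescaling above (0.25, limma adjusted p = 0.0356). The median of 1.08 of both lists is the value of USP8, which is on each. USP35, a mitophagy regulator, averaged 9.68 ± 2.03 FPKM in Dox and 4.16 ± 0.532 FPKM in Cont (SD, n = 3 each; limma adjusted p = 9.37e-05).

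Of 10 tested members with roles in inflammatory and antiviral signalling, 7 rose, 1 fell and 2 did not pass (median 0.49). The rises were led by CYLD, OTUD7B, USP25 and OTUD1, and the fall was that of OTUB1, an inhibitor of ubiquitin-conjugating enzymes. OTUB1 averaged 33.0 ± 3.21 FPKM in Dox and 50.2 ± 4.55 FPKM in Cont (SD, n = 3 each; log2 change -0.59, limma adjusted p = 0.000221). USP18, which removes the interferon-induced modifier ISG15, was at 5.5, 3.87 and 6.43 FPKM in Dox and 6.23, 5.78 and 5.77 FPKM in Cont (log2 change -0.17, limma adjusted p = 0.309). Its Dox libraries straddled the Cont values. Of 10 members tied to Wnt, TGF-beta or AKT signalling, 5 rose, 3 fell and 2 did not pass (median 0.27), and of 5 tied to the cell cycle 1 rose, 2 fell and 2 did not pass (median -0.20). In TPM without mitochondrially encoded genes the cell cycle list had 1 rise, 0 falls and a median of 0.07, and it had 1 rise and 1 fall without Dox replicate 2, Cont replicate 2 or Cont replicate 3. The median of the Wnt, TGF-beta and AKT list was 0.54 in TPM without mitochondrially encoded genes. That of the inflammatory and antiviral list was 0.77 there and 0.29 with no filter on low values.

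**Figure D3:**
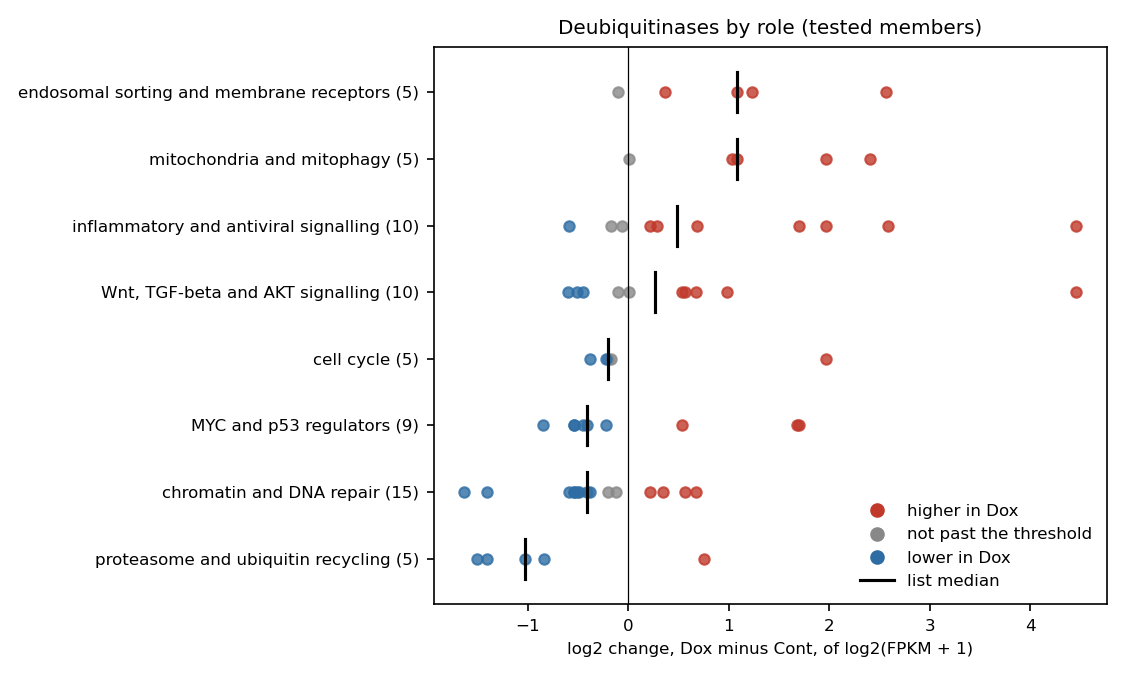
Log2 change of FPKM + 1, Dox minus Cont, of the tested members on 8 overlapping role lists, with the number tested in parentheses; vertical ticks mark list medians. Medians run from -1.03 for proteasome-bound and recycling enzymes to 1.08 for endosomal and mitochondrial members, and the endosomal median was 0.37 with no filter on low values. Both medians of 1.08 are the value of USP8, which is on both lists.

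The catalytic families are also to be read beside the shares over all tested genes, 37.6% higher and 42.8% lower. USP members including CYLD had 20 rises (45.5%) and 17 falls (38.6%) among 44 tested (median -0.05). In TPM without mitochondrially encoded genes they had 22 rises and 11 falls (median 0.21). OTU members had 4 rises (57.1%) and 2 falls (28.6%) among 7 (median 0.29), and 4 rises and 1 fall under that rescaling (median 0.57). Of these rises, that of OTUD3 kept its call in 11 of the 15 alternative settings that tested it. OTUD3 is named after its values were seen. In the UCH family UCHL5 and BAP1 fell and UCHL3 rose. In the Josephin family ATXN3, the protein expanded in spinocerebellar ataxia type 3, was at 21.7, 21.3 and 19.9 FPKM in Dox, against 9.96, 9.98 and 11.5 FPKM in Cont (log2 change 0.94, limma adjusted p = 3.4e-06). JOSD2 rose (0.81) and JOSD1 fell (-0.40).

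Among the 8 tested members that did not pass were USP9X and USP15. USP9X, which stabilises many signalling proteins, was at 31.1, 33.0 and 32.1 FPKM in Dox and 31.9, 32.6 and 39.4 FPKM in Cont (log2 change -0.10, SE 0.088, limma adjusted p = 0.306). USP15, a regulator of TGF-beta receptors, was at 4.58, 4.42 and 4.30 FPKM in Dox and 4.66, 4.31 and 4.27 FPKM in Cont (log2 change 0.01, SE 0.088, limma adjusted p = 0.958). In both genes the groups overlapped. USP39, a splicing factor with an inactive USP fold, averaged 150.5 ± 12.1 FPKM in Dox and 169 ± 2.59 FPKM in Cont (SD, n = 3 each; log2 change -0.17, limma adjusted p = 0.0524). Its Dox values all lay below its Cont values, but its sign turned in TPM without mitochondrially encoded genes (0.11), and it was called lower without Dox replicate 3 (-0.23). The others were USP16, OTUD4, USP49, USP18 and USP54, with log2 changes of -0.20 to 0.03. USP54 was called higher in TPM without mitochondrially encoded genes (0.29), and USP49 was called lower after quantile normalization (-0.49); USP39, OTUD4 and USP49 are named after their values were seen. The 4 untested members, OTUD7A, USP2, USP51 and USP6, stayed below the filter, with FPKM of 0.0485 to 0.516 in Dox and 0.0215 to 1.14 in Cont. USP6 and USP32 are near copies of each other over much of their length, so reads may have been divided between them.

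The deubiquitinase sum took in the 63 genes of deubiquitinases or close relatives, USP39 among them. It stood at 3062, 3074 and 3086 FPKM in Dox, against 1907, 1898 and 1883 FPKM in Cont. That is 1.62-fold higher in Dox, and 1.16-fold when CYLD is left out (2145 to 2165 FPKM in Dox and 1844 to 1867 FPKM in Cont). The sum was 0.509 ± 0.0045% of all FPKM in Dox and 0.29 ± 0.006% in Cont (SD, n = 3 each), and 0.593% and 0.302% when mitochondrially encoded genes are left out of the total. CYLD alone made up 29.8 ± 0.4% of the deubiquitinase sum in Dox and 2.14 ± 0.112% in Cont (SD, n = 3 each). The most abundant members were CYLD, USP8, USP11, USP39 and USP36 in Dox, and USP36, USP39, USP1, USP14 and USP11 in Cont. The share of USP36 was 3.79% in Dox and 11.1% in Cont, and that of USP1 was 1.47% in Dox and 7.44% in Cont.

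**Figure D4:**
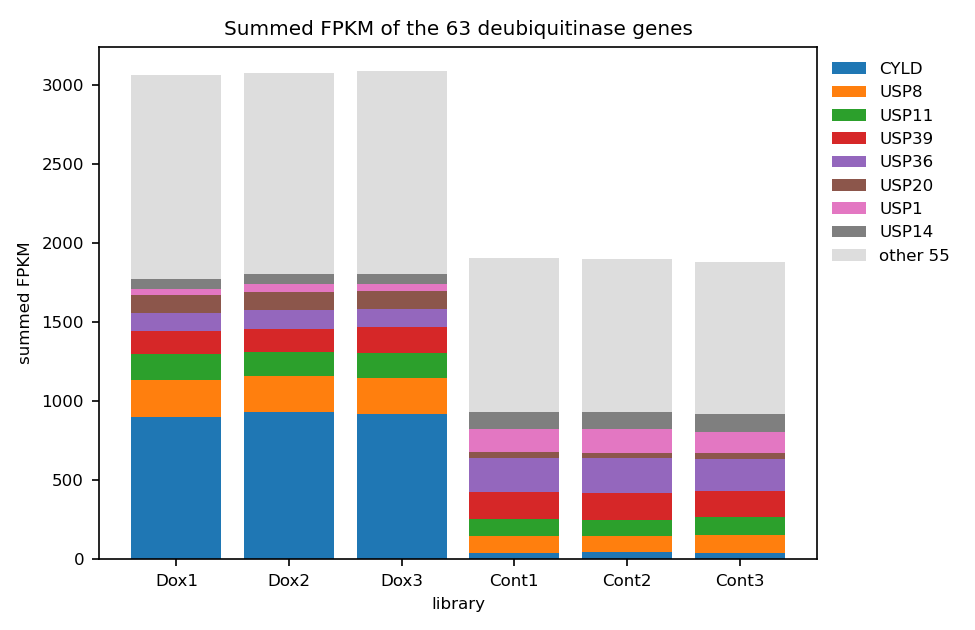
Summed FPKM of the 63 genes of deubiquitinases or close relatives in each library, split into 8 abundant members and the other 55. The Dox bars reach 3062 to 3086 FPKM and the Cont bars 1883 to 1907 FPKM, and the CYLD segment accounts for 29.4% to 30.2% of each Dox bar and 2.06% to 2.27% of each Cont bar.

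Close relatives were set side by side. Of 14 paralog pairs with both genes in the table, 13 had both tested. In 3 pairs the genes were called in opposite directions, in 6 pairs in the same direction, and in 4 pairs at least 1 gene was not called. The ratio of FPKM within a pair does not depend on how libraries are scaled, and in 12 of 13 pairs the 3 Dox ratios did not overlap the 3 Cont ratios. For single genes that share was 82.1% over the whole table, and for unrelated gene pairs it was not computed, so the count shows nothing particular to paralogs.

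USP25 rose and USP28 fell, and the USP25 to USP28 ratio was 9.69, 9.77 and 7.80 in Dox and 1.62, 1.58 and 1.49 in Cont. USP42, a p53 deubiquitinase, rose while its relative USP36 fell, and the USP36 to USP42 ratio was 5.65, 5.49 and 5.33 in Dox and 35.4, 35.5 and 36.1 in Cont. JOSD1 fell and JOSD2 rose, and the JOSD1 to JOSD2 ratio was 0.404, 0.396 and 0.459 in Dox and 0.931, 0.898 and 1.20 in Cont. The fall of JOSD1 itself was not called in TPM without mitochondrially encoded genes (log2 change -0.13, limma adjusted p = 0.152).

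USP53 rose while USP54 did not pass (log2 change 0.03), and the USP53 to USP54 ratio was 9.57, 11.6 and 10.2 in Dox and 0.768, 0.859 and 1.01 in Cont. STAMBP lay below STAMBPL1 in Dox, with ratios of 0.436, 0.449 and 0.408, and above it in Cont, with ratios of 2.13, 2.20 and 2.00. USP4 and USP11 rose (0.54 and 0.57) beside an uncalled USP15, and USP45 rose (0.74) beside an uncalled USP16. USP20 and USP33 both rose, USP35 and USP38 both rose, and USP5 and USP13, USP12 and USP46, and USP31 and USP43 fell together. The falls of USP46 (log2 change -0.24, limma adjusted p = 0.0763) and USP43 (-0.30, limma adjusted p = 0.119) were not called in TPM without mitochondrially encoded genes.

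**Figure D5:**
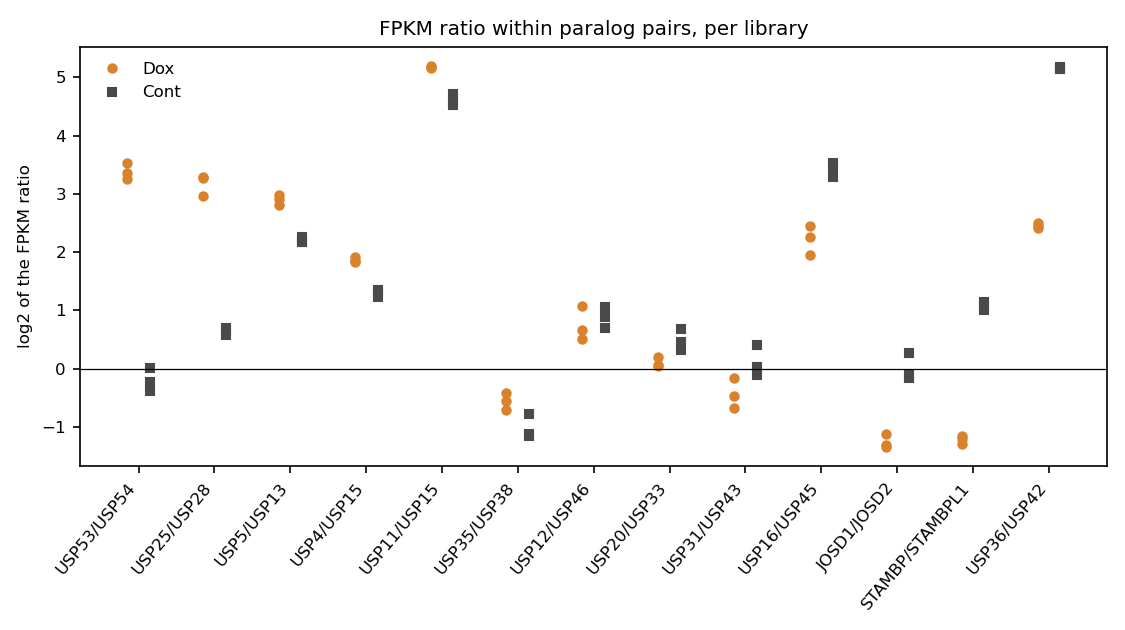
Log2 of the FPKM ratio within 13 paralog pairs, 1 point per library; circles are Dox and squares Cont. The USP53/USP54 and USP25/USP28 ratios are higher in Dox, the USP36/USP42 and STAMBP/STAMBPL1 ratios are lower, and the USP12/USP46 ratios overlap.

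A further list held deubiquitinases with other symbols and relatives of theirs by sequence, not all of them with that activity. Of the 19 that were tested, 9 rose (47.4%), 6 fell (31.6%) and 4 were not called. Over all tested genes 37.6% rose and 42.8% fell. In TPM without mitochondrially encoded genes, 12 of the list rose and 4 fell. Among the relatives were COPS5, PSMD7, EIF3F and ALG13, which fell, and PAN2, which rose, all named after their values were seen. MINDY3, a protease that trims long chains, had the largest rise, to 41.5 ± 3.82 FPKM in Dox against 14.5 ± 0.971 FPKM in Cont (SD, n = 3 each; log2 change 1.46, limma adjusted p = 2e-07). BRCC3, a JAMM protease of the BRCA1-A complex, had the largest fall, to 27.3 ± 1.17 FPKM in Dox against 52.4 ± 2.02 FPKM in Cont (SD, n = 3 each; log2 change -0.92, limma adjusted p = 8.68e-07). TNFAIP3, known as A20 and like CYLD a brake on NF-kB, rose (0.71, limma adjusted p = 4.16e-05), and OTULIN, which cuts linear chains, fell slightly (-0.23, limma adjusted p = 0.00907); both are named after their values were seen.

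Partners of the members moved both ways, as the whole table did. Of 29 tested partner genes 9 rose (31.0%), 13 fell (44.8%) and 7 were not called, beside 37.6% and 42.8% of all tested genes. In TPM without mitochondrially encoded genes 14 partners rose and 10 fell. OGT, which modifies and binds the BAP1 complex, had the largest rise, to 229.9 ± 8.98 FPKM in Dox against 41.2 ± 1.68 FPKM in Cont (SD, n = 3 each; log2 change 2.45, limma adjusted p = 1.69e-09). GMPS, a purine enzyme that binds USP7, had the largest fall, to 3.88 ± 0.428 FPKM in Dox against 18.2 ± 0.882 FPKM in Cont (SD, n = 3 each; log2 change -1.98, limma adjusted p = 3.62e-08). Around CYLD, its adaptor SPATA2 rose (1.81, limma adjusted p = 3.44e-08) and its substrate TRAF2 fell (-1.57, limma adjusted p = 4.04e-08). WDR48, an activator of USP1, USP12 and USP46, rose (1.15, limma adjusted p = 4.78e-07) while those 3 enzymes fell. Of the related partners on the list, DMWD rose (0.93, limma adjusted p = 1.33e-05) and WDR20 fell (-0.25, limma adjusted p = 0.0356). ADRM1, the proteasomal receptor of UCHL5, fell with it (-0.66, limma adjusted p = 3.01e-05). INO80 also fell (-0.80, limma adjusted p = 1.71e-05), and NFRKB was not called (-0.03, limma adjusted p = 0.725). All partners named here except OGT and GMPS are named after their values were seen.

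Among proteases of SUMO and other ubiquitin-like proteins, 8 of 16 rose, 5 fell and 3 were not called, beside 37.6% higher and 42.8% lower over all tested genes. The share called in either direction was 81.2% of the list and 80.4% of all tested genes. In TPM with or without mitochondrially encoded genes, 8 of the list rose and 3 fell. ATG4A, which processes ATG8 proteins in autophagy, had the largest rise, to 60.7 ± 6.1 FPKM in Dox against 6.9 ± 0.897 FPKM in Cont (SD, n = 3 each; log2 change 2.97, limma adjusted p = 6.65e-09). DESI1, a deSUMOylating protease, had the largest fall (-1.23, limma adjusted p = 8.65e-07). Of 9 tested ubiquitin and activating enzyme genes 2 rose (22.2%), 6 fell (66.7%) and 1 was not called, to be read beside the same shares of all genes. In TPM without mitochondrially encoded genes, 3 of them rose and 4 fell. RPS27A, a ubiquitin and ribosomal protein fusion gene, had the largest fall, to 345 ± 17.2 FPKM in Dox against 649.8 ± 28.6 FPKM in Cont (SD, n = 3 each; log2 change -0.91, limma adjusted p = 1.08e-06).

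The promoter windows of the members, from 250 bases before to 50 bases after each start in RefSeq, were searched for a FOXO site, GTAAACA or its reverse complement TGTTTAC, and for the E-box CACGTG, which reads the same on both strands. At least 1 window was listed for 50 members, 72 windows in all. The FOXO site occurred in 2 member windows (2.78%), those of OTUD1 and USP54, and in 3.42% of all 35116 windows. The E-box occurred in 6 member windows (8.33%) and in 7.26% of all windows; those of called members were OTUD1, USP32 and USP6NL, which rose, and USP28 and USP36, which fell. These matches are letters in a window and not shown to be bound. OTUD1 held both motifs, and its window, chr10:23438825-23439124, plus strand, is shown. Of the 2 windows listed for USP36, the 1 with the E-box, chr17:78840765-78841064, minus strand, is shown with it. Capitals mark the matches, the E-box in both and the FOXO site in OTUD1, and the windows of CYLD and USP1 given above held neither.
OTUD1: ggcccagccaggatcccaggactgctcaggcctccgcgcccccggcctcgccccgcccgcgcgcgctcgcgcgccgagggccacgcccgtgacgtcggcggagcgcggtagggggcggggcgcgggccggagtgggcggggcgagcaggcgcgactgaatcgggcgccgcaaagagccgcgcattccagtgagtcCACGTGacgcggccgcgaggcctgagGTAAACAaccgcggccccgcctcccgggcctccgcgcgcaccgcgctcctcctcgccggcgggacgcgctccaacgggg
USP36: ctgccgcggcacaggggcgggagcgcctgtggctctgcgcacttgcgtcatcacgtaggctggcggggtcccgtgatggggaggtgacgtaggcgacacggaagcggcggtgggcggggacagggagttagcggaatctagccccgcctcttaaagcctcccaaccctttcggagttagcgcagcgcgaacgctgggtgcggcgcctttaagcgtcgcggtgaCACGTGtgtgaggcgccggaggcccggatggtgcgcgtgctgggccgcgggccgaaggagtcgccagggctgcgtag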

How the data were processed

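The authors deposited 1 table of log2 FPKM for 13117 genes in 6 libraries, and the lowest values, shared between libraries, show an offset. Per the labels' protocols, total RNA was made into libraries by poly(A) capture, and FastQC 0.11.7 and the build GRCh38 were used, per the submitters' processing notes. The aligner, counter and annotation are not given in the sources used here. Columns were matched to samples by title, because the first Cont sample's description points to the column of the second, which affects only their replicate numbers. Members and gene lists were chosen with earlier results of these data known.

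Deposited values were raised as powers of 2 to give FPKM. All genes with at least 1 FPKM in at least 3 libraries (11526) entered a fit of log2(FPKM + 1) by limma 3.58.1 (R 4.3.3) with a mean-variance trend, two-sided, with Benjamini-Hochberg adjustment and a threshold of 0.05. Log2 changes are Dox minus Cont on that scale, which understates changes of low genes, and fold changes are ratios of mean FPKM. The labels do not state that libraries of a group came from different cultures. The p-values set the difference between groups against the spread within the groups of these samples only, and that spread may be technical. The named genes were 21 fixed members (20 with a row), the 8 largest rises and falls past the threshold without overlap and with a mean of at least 1 FPKM in the higher group, the paralog pairs, and the largest rise and fall of each list of related genes, of which 1 is not reported here.

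Absolute depth is unknown. In 307 genes at least 2 libraries shared the lowest value, taken as 0 reads, and the 18 to 51 low values above it per library all lay within 0.05 reads of a whole number, which gives the relative depths. The offset was worth 2.0 reads on average. Scaled by transcript length, which is rough, 5 members had under 100 reads in some library, and the median member had about 1820 in its lowest. Alternatives covered pseudocounts, filters, scaling, trend, replicate block and leaving out each library. Members shared at most 2.12% of their exon bases with another gene of the table in GENCODE 29 (USP14 with THOC1).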

Additional observations from a re-analysis of the deposited data

How the results depend on the processing

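Of the 52 member calls, 40 (26 rises and 14 falls) were the same in every one of 16 alternative settings that tested them. Leaving mitochondrially encoded genes out of TPM gave 14 members called lower in place of 22. The member median of 0.13 in log2 was 0.22 with a filter of 5 FPKM, 0.24 in TPM, 0.39 in TPM without mitochondrially encoded genes and 0.19 with median-of-ratios scaling. Without each library in turn, 27 to 30 members were higher and 21 to 22 lower. Uncalled genes changed sign: USP9X to 0.01 in TPM, 0.17 in TPM without mitochondrially encoded genes and 0.03 under quantile normalization; USP16 and USP18 each to 0.07 in TPM without mitochondrially encoded genes; and USP15 to -0.12 under quantile normalization. With 1 library left out, USP15 ran between -0.01 and 0.04, USP54 between -0.03 and 0.07, and USP18 between -0.30 and 0.01, USP18 being at 0.01 without Dox replicate 2. USP16 became called without Dox replicate 1 (-0.25, limma adjusted p = 0.0309) or Cont replicate 1 (-0.24, limma adjusted p = 0.0457). For the signs that changed under a scaling, the cause was not tested beyond the scaling itself. The call of USP21 (0.22) ended without any 1 of Dox replicates 1, 2 and 3 and Cont replicates 1 and 2, and that of USP27X (0.35) without Dox replicates 1 and 2 or Cont replicates 1 and 2.

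Whether replicate numbers pair the samples could not be decided. Same-numbered deviations correlated at 0.037, -0.005 and 0.079, and Dox replicate 1 correlated best with Cont replicate 2 (0.092). The numbers of Cont replicates 1 and 2 are themselves uncertain, and with these exchanged the values are 0.092, 0.01 and 0.079. With the replicate number as a block, 29 members were higher and 21 lower. Low values limit UCHL3 and the 4 untested members.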
